A study of Rattus norvegicus with 35 samples.

Results

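The genes described here are 9 rat genes of haemoglobin and of the red cell and its precursors: Hbb-b1, Ahsp, Alas2, Slc4a1, Epb42, Gata1, Klf1, Tfrc and Hebp1. They were chosen by symbol, among 35581 distinct gene names on the array, and matched 12 of 41012 probes. Of these probes, 9 carried the symbol of 6 of the genes in the array files, and the other 3 genes were found through older names that RefSeq pairs with them. Those older names were MGC72973 for Hbb-b1, Epb4.2_predicted for Epb42 and Eraf_predicted for Ahsp. The study asked how RNA profiles of the olfactory epithelium, the odour-sensing lining of the nose, differ between individual rats and between ages. RNA was hybridized to 35 Agilent whole rat genome arrays with 1 dye, from 27 Brown Norway rats. The newborn group held 19 pups 3 to 5 days old, whose sex the labels do not give, from 4 litters called L1 (4 pups), L2, L3 and L4 (5 pups each), with 1 array per pup. The adult group held 4 males 9 weeks old and the old group 4 males 22 months old, each with 1 array for each side of the nose, called nostril A and nostril B. Pups came with their mothers from a breeder, so that litter, mother and delivery cannot be told apart, and none of the groups received a treatment.

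Red cells mature from nucleated precursors in the marrow and, around birth, in the liver and spleen. In the precursors, the transcription factors Gata1 and Klf1 switch on the globin genes, haem synthesis and the proteins of the red cell membrane. The nucleus is then lost, and the young red cells released into the blood, the reticulocytes, still carry much globin RNA, which disappears as they mature. Any RNA sample of a tissue that contains blood holds some of these transcripts.

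Median spot intensities were 42.1 to 87.7 on newborn arrays, 81.6 to 162 on adult arrays and 37.1 to 55.3 on old arrays, with 24493 to 28376 probes well above background across the 35 arrays. All 6 markers of olfactory sensory neurons and all 4 of sustentacular cells that the array holds were well above background on every array, as the tissue label states. Adult arrays were scanned on 2 days of their own, old and L1 arrays together on another day, and L2, L3 and L4 arrays on later days. Age and scan day therefore cannot be told apart, except in the comparison of L1 pups with old rats. Of the 10 slides, 6 held newborn, 2 adult and 2 old arrays, so that age and slide cannot be told apart in any comparison, L1 against old rats included. L1 is also 1 litter, so that age and litter cannot be told apart there.

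RefSeq promoter windows (GRCr8; 250 bases before to 50 after the start of the gene) were given for 7 of the 9 genes, and not for Ahsp and Slc4a1. They are shown for Hbb-b1 and for the 3 genes among Alas2, Epb42, Klf1 and Gata1 whose window holds a GATA motif, because Alas2, Epb42 and Klf1 moved together from pup to pup, with lower correlations for Hbb-b1. The motif was searched on both strands as the word AGATA or the word TGATA with A or G after it, and is in capitals, as is the 1 CACC box of Hbb-b1, searched as CCNCNCCC on both strands. The windows lie at chr1:167643471-167643770 (minus strand), chrX:22895200-22895499 (plus strand), chr3:128451634-128451933 (minus strand) and chr19:40158602-40158901 (minus strand), each printed in the direction of the gene.
Hbb-b1: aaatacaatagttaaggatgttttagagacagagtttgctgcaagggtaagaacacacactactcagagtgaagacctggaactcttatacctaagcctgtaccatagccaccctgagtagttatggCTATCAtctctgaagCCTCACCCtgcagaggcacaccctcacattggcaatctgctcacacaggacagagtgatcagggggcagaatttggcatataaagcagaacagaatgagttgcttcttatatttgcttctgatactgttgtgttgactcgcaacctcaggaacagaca
Alas2: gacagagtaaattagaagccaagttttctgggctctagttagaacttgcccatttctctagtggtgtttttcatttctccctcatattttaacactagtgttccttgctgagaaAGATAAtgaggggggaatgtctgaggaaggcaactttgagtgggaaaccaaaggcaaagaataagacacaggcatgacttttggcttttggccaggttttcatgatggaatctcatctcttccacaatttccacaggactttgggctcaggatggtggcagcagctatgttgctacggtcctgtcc
Epb42: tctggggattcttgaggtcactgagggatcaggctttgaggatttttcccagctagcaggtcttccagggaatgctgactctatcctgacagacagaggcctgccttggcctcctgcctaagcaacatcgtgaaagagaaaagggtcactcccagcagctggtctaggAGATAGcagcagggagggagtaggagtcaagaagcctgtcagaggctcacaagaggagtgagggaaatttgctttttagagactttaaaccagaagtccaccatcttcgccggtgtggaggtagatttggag
Klf1: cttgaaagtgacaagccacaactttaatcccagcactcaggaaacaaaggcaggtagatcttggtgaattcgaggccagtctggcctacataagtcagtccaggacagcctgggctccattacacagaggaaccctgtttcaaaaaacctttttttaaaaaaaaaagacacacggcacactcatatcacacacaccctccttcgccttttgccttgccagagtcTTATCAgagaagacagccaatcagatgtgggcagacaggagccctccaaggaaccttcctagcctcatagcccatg
A GATA motif was present in these 4 of the 7 windows, and in 30.3% of all 33469 promoter windows. The CACC box was present in 4 of the 7, those of Hbb-b1, Gata1, Tfrc and Hebp1, and in 46.3% of all windows. The stricter form CCACACCC was in none of the 7 and in 3.22% of all. A match of these letters is a description of the window and not a bound site.

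Newborn rats had more RNA than adult rats of all 9 genes, on the probe that stood for the gene, the brightest where there were several. Of the 12 probes, 10 were called higher in newborn rats at an adjusted p under 0.01, against 26.8% of all probes, and 1 was called lower, against 19.8% of all probes. The median log2 change over the 9 genes was 3.42, where it was 0.10 over all probes. The sizes differed widely. The gene of the haemoglobin chaperone, Ahsp, was 34.2-fold higher in newborn rats, the beta-globin transcript Hbb-b1 2.95-fold and the transferrin receptor Tfrc 1.70-fold. In a tissue sample, fewer cells of a type and less RNA per cell cannot be told apart. Levels below are given as the log2 of the background-subtracted intensity over the median of its array, so that 0 is the array median. Changes between newborn and older rats weight the 4 litters equally, except differences relative to Hbb-b1, which weight each pup equally. Where groups are said not to overlap, the share of all probes for which this held is not given.

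**Figure D1:**
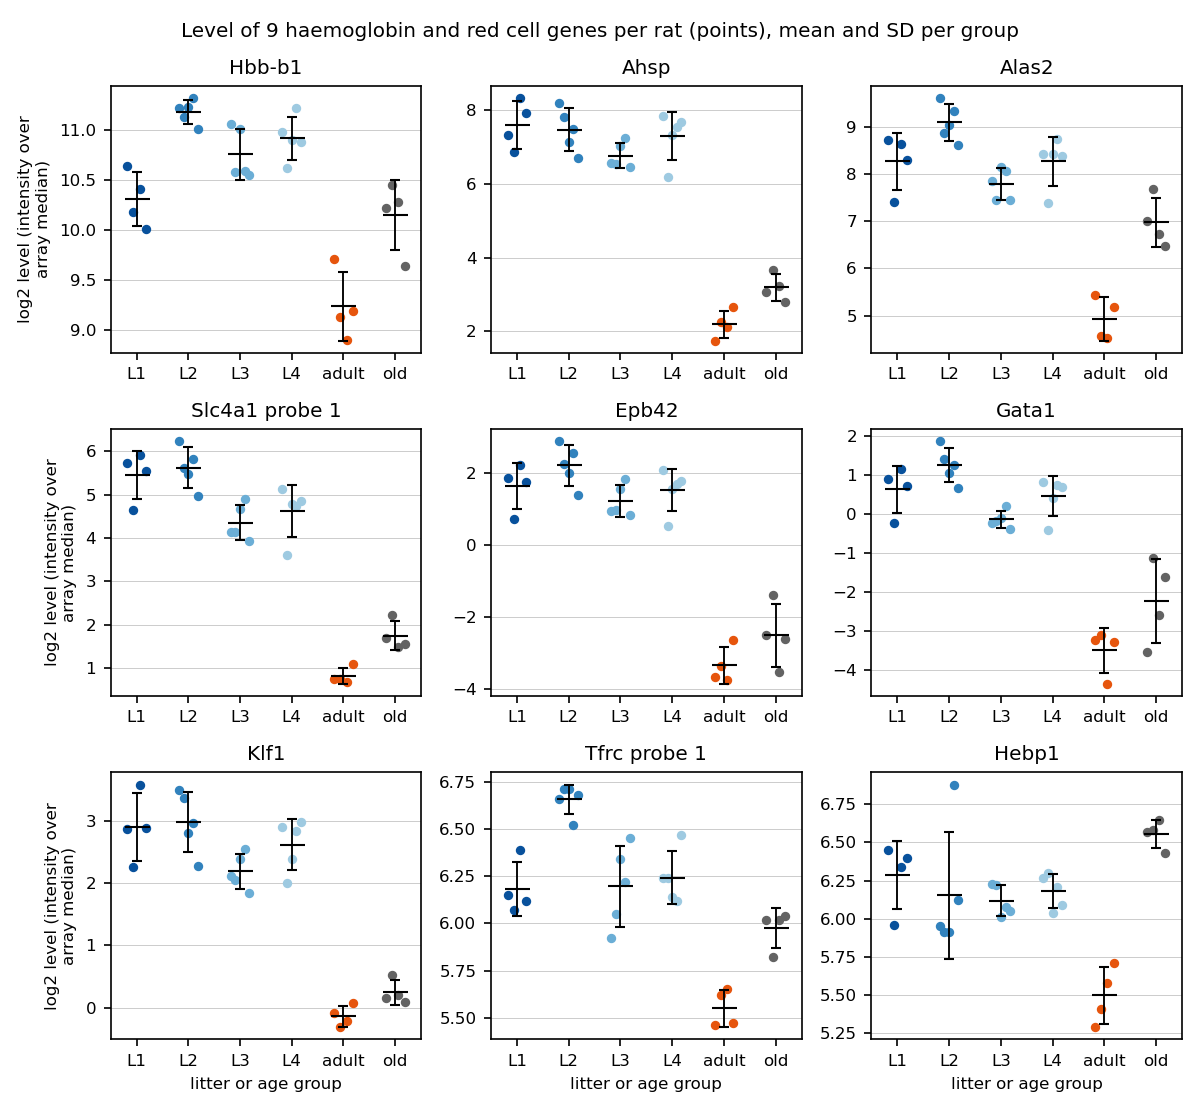
Log2 level (intensity over array median, y axis of each panel on its own scale) of 9 genes in 27 rats by litter or age group, where points are rats and bars the mean and SD of the group. In each panel the 19 pups lie above the 4 adult rats. For Ahsp, Slc4a1, Epb42, Gata1 and Klf1 they also lie above the 4 old rats, and for Hebp1 17 of 19 pups lie below all old rats. Epb42 and Gata1 were not well above background on any adult array.

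Hbb-b1 encodes a beta chain of adult haemoglobin. Its probe (rn3 chr1:161671970-161672029, minus strand) also lists Hbb in its accessions, so that transcripts of near-identical beta-globin genes are read together. The log2 level of Hbb-b1 was 10.01 at the lowest, 10.90 at the median and 11.32 at the highest in the 19 pups. In adult rats it was 9.71, 9.13, 8.90 and 9.19, and in old rats 10.22, 10.45, 10.28 and 9.64. All pups were above all adult rats, and 16 of 19 were above all old rats. The level was 1.56 ± 0.14 (SE) log2 units higher in newborn than in adult rats (adjusted p = 2.43e-09) and 0.64 ± 0.14 higher than in old rats (adjusted p = 5.82e-04). With quantile normalization the first of these differences was 0.69, and with each litter's mean as 1 newborn replicate the second had an adjusted p of 0.0479.

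Ahsp encodes the alpha-haemoglobin stabilizing protein, which holds free alpha chains until they meet a beta chain (rn3 chr1:187711448-187711507, plus strand). Its log2 level ran from 6.19 through a median of 7.31 to 8.32 in pups. It was 1.75, 2.25, 2.11 and 2.65 in adult rats and 3.06, 3.67, 3.23 and 2.80 in old rats. The 3 age groups did not overlap, with newborn rats highest and adult rats lowest. Ahsp was 5.09 ± 0.28 log2 units higher in newborn than in adult rats (adjusted p = 3.61e-13) and 4.09 ± 0.28 higher than in old rats (adjusted p = 2.51e-11), with ranges over all alternatives of 4.74 to 5.25 and 3.79 to 4.25.

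Alas2 encodes the erythroid form of 5-aminolevulinate synthase, which catalyses the first step of haem synthesis (rn3 chrX:39863822-39863881, plus strand). Pups had a lowest log2 level of 7.39, a median of 8.41 and a highest of 9.60. Adult rats had 5.45, 4.57, 4.53 and 5.19, and old rats 7.01, 7.68, 6.73 and 6.47. Old rats stood between the other groups, and 15 of 19 pups were above all of them. The difference from adult rats was 3.42 ± 0.25 log2 units (adjusted p = 5.78e-11) and that from old rats 1.38 ± 0.25 (adjusted p = 6.68e-05).

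Slc4a1 encodes band 3, the chloride-bicarbonate exchanger that is the most abundant protein of the red cell membrane. Probe 1 (rn3 chr10:91469722-91469781, minus strand) had log2 levels from 3.60 through a median of 4.90 to 6.23 in pups. On this probe adult rats had 0.75, 0.75, 0.68 and 1.08, and old rats 1.70, 2.23, 1.48 and 1.56. No group overlapped another. Newborn rats were 18.4-fold above adult rats (SE 0.24 on the log2 scale, adjusted p = 1.11e-12) and 3.27 ± 0.24 above old rats (adjusted p = 1.24e-10). Probe 2 (rn3 chr10:91473198-91473770, an interval of 573 bases for a probe of 60) was well above background on 15 of 19 pup arrays and on none of the 8 adult or 8 old arrays. For it newborn levels exceeded the adult ones by at least 2.06-fold (adjusted p = 1.50e-10) and the old ones by at least 1.79-fold (adjusted p = 9.56e-11). Such bounds set the newborn mean against the lowest signal that counted as well above background on the other group's arrays.

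Epb42 encodes protein 4.2, which ties band 3 to the membrane skeleton (rn3 chr3:107702999-107703058, minus strand). It was well above background on all 19 pup arrays, on none of 8 adult arrays and on 1 of 8 old arrays. Log2 levels were 0.51 at the lowest, 1.73 at the median and 2.87 at the highest in pups, and -2.50, -1.41, -3.55 and -2.62 in old rats. Every pup was above every older rat. Newborn levels of Epb42 were at least 16-fold those of adult rats (adjusted p = 8.04e-12), and the measured difference from old rats was 4.16 ± 0.33 log2 units (adjusted p = 2.87e-10). With background correction by normexp and quantile normalization the latter was 1.48.

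Gata1 encodes the zinc-finger factor that red cell, megakaryocyte, mast cell and eosinophil precursors need (rn3 chrX:26624227-26624730, plus strand, an interval of 504 bases). Its probe was well above background on all 19 pup arrays, on no adult array and on 3 of 8 old arrays. In pups the log2 level was between -0.42 and 1.86 with a median of 0.70, and in old rats it was -3.54, -1.13, -2.58 and -1.62. Pups and older rats did not overlap. Newborn levels of Gata1 were at least 7.54-fold those of adult rats (adjusted p = 2.24e-10) and 2.77 ± 0.32 log2 units above those of old rats (adjusted p = 1.39e-07), or 0.86 with normexp and quantile normalization.

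Klf1 encodes the erythroid Krüppel-like factor, which binds CACC boxes of globin and other red cell genes (rn3 chr19:24911920-24911979, minus strand). It was well above background on all 35 arrays. Log2 levels of Klf1 were 1.84 at the lowest, 2.81 at the median and 3.58 at the highest in pups, -0.09, -0.31, -0.22 and 0.07 in adult rats, and 0.15, 0.53, 0.21 and 0.09 in old rats. Here too the 3 ages did not overlap, but the highest adult rat (0.07) and the lowest old rat (0.09) were close, and adult and old rats were not called different. The newborn level was 2.81 ± 0.20 log2 units above the adult level (adjusted p = 5.06e-11) and 2.43 ± 0.20 above the old level (adjusted p = 9.25e-10), with lowest values over the alternatives of 1.81 and 1.56.

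Tfrc encodes transferrin receptor 1, by which dividing cells and red cell precursors take up iron. Its 3 probes disagreed. Probe 1, the brightest (rn3 chr11:70034217-70034276, minus strand), had log2 levels of 5.92, 6.24 and 6.71 as the lowest, median and highest in pups, 5.46, 5.62, 5.65 and 5.47 in adult rats, and 6.02, 5.82, 6.02 and 6.04 in old rats. Adult rats were the lowest group, 0.77 ± 0.08 log2 units below newborn rats (adjusted p = 1.84e-08), and newborn rats were 0.34 ± 0.08 above old rats (adjusted p = 9.18e-04). With each litter's mean as 1 newborn replicate the difference from old rats had an adjusted p of 0.0331. Probe 2 (rn3 chr11:70034950-70035009) gave -0.13 ± 0.12 for newborn against adult rats (adjusted p = 0.38). Probe 3 (rn3 chr11:70036435-70038089, an interval of 1655 bases) was the 1 probe called lower in newborn than in adult rats, by -2.76 ± 0.34 log2 units (adjusted p = 2.59e-07). It was well above background on 8 of 8 adult arrays but on 3 of 19 pup arrays and 1 of 8 old arrays.

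Hebp1 encodes haem-binding protein 1, which is found in many tissues (rn3 chr4:172303679-172303738, minus strand). The log2 level in pups was 5.91 at the lowest, 6.12 at the median and 6.88 at the highest. It was 5.29, 5.41, 5.58 and 5.71 in adult rats and 6.57, 6.58, 6.65 and 6.43 in old rats. Old rats were the highest group, with 17 of 19 pups below all of them. Hebp1 was 0.69 ± 0.12 log2 units higher in newborn than in adult rats (adjusted p = 4.47e-05), which fell to 0.32 with quantile normalization (adjusted p = 0.0312). Against old rats the value was -0.37 ± 0.12 (adjusted p = 0.0135).

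Against old rats, 9 of the 12 probes, of 8 of the 9 genes, were called higher in newborn rats, where 20.4% of all probes were, and none was called lower, where 22.7% were. The median log2 change of the 9 genes was 2.43 against -0.04 over all probes. L1 pups and old rats were the groups of different age scanned on the same day. In that comparison 7 probes of 6 genes were called higher in L1, against 13.4% of all probes, and none was called lower, against 18.8%. Ahsp was 4.41 ± 0.36 log2 units higher in L1 than in old rats (adjusted p = 1.06e-09), Slc4a1 on probe 1 3.71 ± 0.31 (adjusted p = 2.12e-09) and Klf1 2.65 ± 0.26 (adjusted p = 2.57e-08). Epb42 and Gata1 were called higher too (adjusted p = 3.50e-08 and 5.62e-06), but the old signal was well above background on 1 and 3 of 8 arrays, so the sizes of 4.15 and 2.85 depend on the background and were 1.47 and 0.89 with normexp and quantile normalization. The call of Gata1 was lost with the methods' t-test (adjusted p = 0.0241). For these 5 genes all 4 L1 pups were above all 4 old rats, and the share of all probes for which this held is not given. Alas2 was 1.29 ± 0.32 higher (adjusted p = 0.00234), a call lost when only L1 and old rats entered the fit (adjusted p = 0.028) and without L1 rat 9 (1.14), L1 rat 11 (1.17) or old rat 20 (1.12). Hbb-b1 gave 0.16 ± 0.18 (adjusted p = 0.541), with L1 pups at 10.64, 10.18, 10.41 and 10.01 overlapping the old rats. Tfrc on probe 1 gave 0.21 ± 0.10 (adjusted p = 0.115) and Hebp1 -0.27 ± 0.16 (adjusted p = 0.184).

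**Figure D2:**
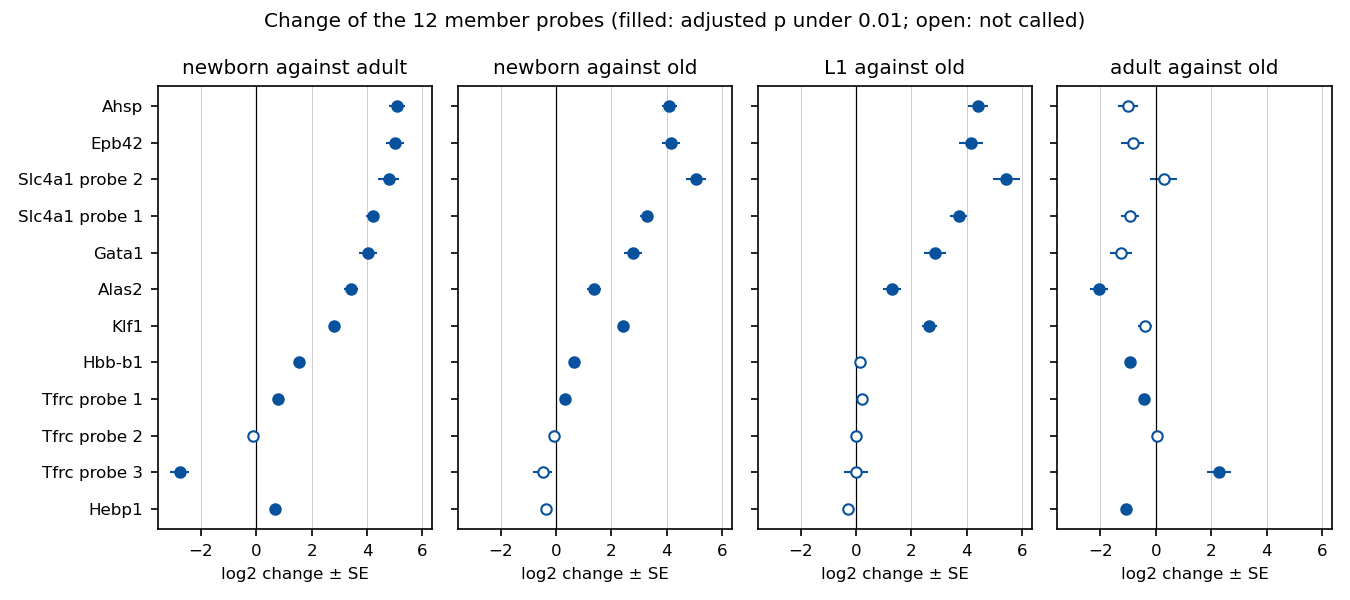
Log2 change ± SE (x axis) of the 12 probes of the 9 genes in 4 comparisons, where filled points have an adjusted p under 0.01. Ahsp, Epb42, Slc4a1, Gata1 and Klf1 lie to the right in the 3 comparisons with newborn rats, Hbb-b1 lies at 1.56, 0.64 and 0.16 in them, and the Tfrc probes run in different directions. Changes of Epb42 and Gata1 against adult rats and all changes of Slc4a1 probe 2 rest on intensities not well above background in the older rats.

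Between the older groups, 4 genes were called lower in adult than in old rats, where 20.2% of all probes were, and 1 probe (Tfrc probe 3, by 2.28 ± 0.44 log2 units) was called higher, where 11.7% were. Alas2 differed most among the 4, by -2.04 ± 0.32 log2 units (adjusted p = 2.02e-05), and all adult rats were below all old rats. Hebp1 differed by -1.06 ± 0.16 (adjusted p = 9.50e-06), Hbb-b1 by -0.92 ± 0.18 (adjusted p = 2.99e-04) and Tfrc on probe 1 by -0.43 ± 0.10 (adjusted p = 0.0017). The last 2 calls were lost with quantile normalization, where Hbb-b1 gave -0.16 (adjusted p = 0.501) and Tfrc -0.06 (adjusted p = 0.766). Ahsp, at -1.01 ± 0.36 (adjusted p = 0.0262), and Slc4a1 on probe 1, at -0.93 ± 0.31 (adjusted p = 0.02), did not pass the threshold. Neither did Gata1 (adjusted p = 0.0166), with no adult array well above background. Klf1 gave -0.38 ± 0.26 (adjusted p = 0.265).

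The ratio of each gene to Hbb-b1 within a rat was compared between ages, since a scaling factor of the array cancels in it. Quantile normalization is not 1 factor per array and does not cancel. It took the change of Hbb-b1 in newborn against adult rats from 1.56 to 0.69, and the ratios are not given under it. Relative to Hbb-b1, newborn rats were higher than adult rats by 3.49 log2 units for Ahsp, 2.59 for Slc4a1 and 1.84 for Alas2. For each of them the exact permutation test over rats (two-sided) gave p = 1.13e-04, the smallest that 19 against 4 rats allow (adjusted p = 4.02e-04). Pups entered this test singly, without regard to litter, and litter means were not tested. No such difference is given for Epb42 and Gata1, whose probes were not well above background on most arrays of the older rats. For Klf1 the difference was 1.21 (exact test, adjusted p = 9.86e-04). Tfrc and Hebp1 went the other way, at -0.81 and -0.9 (exact test, adjusted p = 0.00167 and 0.00516). In L1 against old rats, on 1 scan day, the differences relative to Hbb-b1 were 4.25 for Ahsp, 3.56 for Slc4a1 and 2.49 for Klf1, with no overlap between the groups (exact test, p = 0.0286, the smallest that 4 against 4 rats allow, adjusted p = 0.0435 over 32 tests). Alas2 gave 1.13 (exact test, adjusted p = 0.0795). Between adult and old rats Alas2 stood lower relative to Hbb-b1 in adult rats by -1.12 (exact test, adjusted p = 0.0435), while the values of Ahsp and Slc4a1 were -0.09 and -0.01 with overlapping groups.

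The 3 litters scanned on the same later days, L2, L3 and L4, differed on 2 of the 12 probes by limma's moderated F test, where 5.54% of all probes did. Slc4a1 on probe 1 had mean log2 levels of 5.62 ± 0.47 in L2 (SD, n = 5), 4.35 ± 0.41 in L3 and 4.62 ± 0.59 in L4 (adjusted p = 0.00801). Tfrc on probe 1 had 6.66 ± 0.08, 6.20 ± 0.21 and 6.24 ± 0.14 (adjusted p = 0.00244). L2 was the highest litter on both. It was also the highest of the 3 in mean level of Hbb-b1 (11.18 ± 0.12), Alas2 (9.09 ± 0.39), Epb42 (2.20 ± 0.57), Gata1 (1.25 ± 0.44), Klf1 (2.98 ± 0.49) and Ahsp (7.46 ± 0.58), none of which passed the test (adjusted p between 0.0117 for Alas2 and 0.28 for Ahsp). The count of 2 was 1 without any of rats 21, 23, 24, 26, 27, 30, 33 and 35, and 0 without rat 22.

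Pups of a litter also differed from each other, and in the same direction for most of the genes. Within litters the SD of Ahsp was 0.56 log2 units, more than in 95.8% of the 22851 probes well above background in all pups, whose median SD was 0.20. That of Epb42 was 0.56 as well, of Slc4a1 0.51, of Alas2 0.46, of Gata1 0.46 and of Klf1 0.43, and Klf1, the lowest of these, was above 90.8% of probes. Hbb-b1 varied less, with an SD of 0.22 (above 56.2% of probes), and Tfrc less again, with 0.15 on probe 1 (above 27%). In L4, rat 32 was the lowest pup for Ahsp (6.19), Alas2 (7.39), Slc4a1 (3.60), Epb42 (0.51), Gata1 (-0.42) and Klf1. In L1, rat 10 was the lowest for the same 6 genes and rat 11 the highest for all of them but Alas2.

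After subtraction of litter means, the 15 pairs among Ahsp, Alas2, Slc4a1, Epb42, Gata1 and Klf1 had Pearson correlations of 0.78 to 0.99 over the 19 pups, with a median of 0.92. Spearman correlations of these pairs were 0.66 to 0.98, and all 15 passed an adjusted p under 0.05 over the 36 pairs of the 9 genes (permutation within litters, two-sided, highest adjusted p = 0.00348 for Pearson and 0.0179 for Spearman). Without the 2 pups farthest from the median of the first gene of each pair the range was 0.57 to 0.99. The closest pair was Slc4a1 and Epb42, whose proteins sit together in the membrane. Among the 22851 probes, Klf1 ranked 2 in likeness to Ahsp over pups (r = 0.94), Epb42 ranked 6, Gata1 ranked 7 and Slc4a1 ranked 9, while Alas2 ranked 35 (r = 0.79) and Hbb-b1 ranked 2167 (r = 0.30). Correlations of single pups share the scaling of 1 array per pup, and its part in these pairs was not tested. Tfrc and Hebp1, with smaller SDs within litters (0.15 and 0.25), had correlations between -0.32 and 0.28 with every other gene. None of these passed the test (lowest adjusted p = 0.135).

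Correlations of Hbb-b1 with these genes were lower. With Alas2 its correlation was 0.68 (Spearman 0.70; permutation test, adjusted p = 0.0452 and 0.0278 over the 8 genes compared with Hbb-b1), and without the 2 pups farthest from the median of Hbb-b1 it was 0.69 (permutation test, adjusted p = 0.0727). With Slc4a1 it was 0.46, with Gata1 0.45, with Epb42 0.44, with Klf1 0.41 and with Ahsp 0.30, none past the threshold (permutation test, adjusted p between 0.168 and 0.339, Spearman 0.24 to 0.45). Without the 2 pups farthest from the median of Hbb-b1 these 5 values were 0.57 with Slc4a1, 0.50 with Gata1, 0.57 with Epb42, 0.54 with Klf1 and 0.51 with Ahsp, still not past the threshold (permutation test, adjusted p between 0.0894 and 0.0953). Whether the correlations of Hbb-b1 and of Klf1 with Ahsp differ was not tested. The promoter windows of Alas2, Epb42 and Klf1 were printed above because they hold a GATA motif. The window of Hbb-b1 holds the motif too, and that of Gata1, which moved together with Alas2, Epb42 and Klf1, does not.

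**Figure D3:**
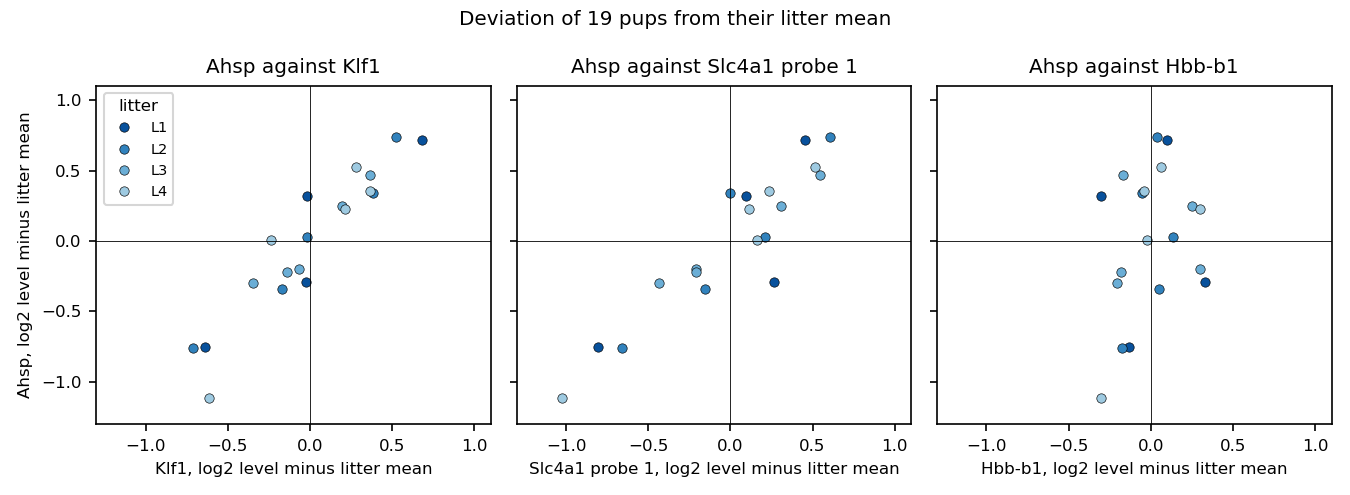
Log2 level of Ahsp minus its litter mean (y axis) against the same for Klf1, Slc4a1 (probe 1) and Hbb-b1 (x axes, same scale) in 19 pups, coloured by litter. Ahsp follows Klf1 (r = 0.94) and Slc4a1 (r = 0.92) closely and Hbb-b1 with r = 0.30 (0.51 without the 2 pups farthest from the median of Hbb-b1), over a narrower range of Hbb-b1.

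The 10 gene symbols whose level followed Hbb-b1 most closely within litters included 2 further globin genes, Hbb (r = 0.84) and Hba-a3 (r = 0.83). Of the rest, 5 were named for ribosomal proteins or close relatives, Rps19l1 (0.86), Rps28 (0.83), Rps2 (0.83), Rps21 (0.82) and Rpl37l1 (0.82), and 3 were Nsd1 (0.83), Sap30l (0.82) and Isca1 (0.82). All 10 were called higher in newborn rats than in adult ones at an adjusted p under 0.01, where 26.8% of all probes were, by 0.43 (Nsd1) to 2.41 (Rps19l1) log2 units. They were picked for their correlation, given as a description over 19 pups, from the 22851 probes well above background on all pup arrays. No such demand was made of adult arrays, so the 26.8% over all probes is not a like measure for these genes.

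The 2 sides of the nose of 1 rat differed for the same genes. In old rats the mean absolute difference between nostrils was 1.13 log2 units for Alas2, 0.80 for Ahsp, 0.71 for Hbb-b1, 0.60 for Klf1 and 0.52 for Slc4a1, where the median probe had 0.13. For Tfrc on probe 1 it was 0.04 and for Hebp1 0.10. Nostril A minus nostril B in old rats 17, 18, 19 and 20 was -0.60, 0.33, 1.04 and 0.88 for Hbb-b1, -1.41, -0.36, 1.89 and 0.88 for Alas2, and -0.93, -0.32, 1.28 and 0.68 for Ahsp. In rat 17 all 3 genes were higher in nostril B, in rats 19 and 20 all 3 were higher in nostril A, and in rat 18 the genes went different ways. Adult rats had smaller mean differences for Hbb-b1 (0.25), Alas2 (0.39), Klf1 (0.33) and Slc4a1 on probe 1 (0.20) and a similar one for Ahsp (0.75). The median probe had 0.16 in adult rats, near the value of Slc4a1. Pups had 1 array each, so no such comparison was possible in them.

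**Figure D4:**
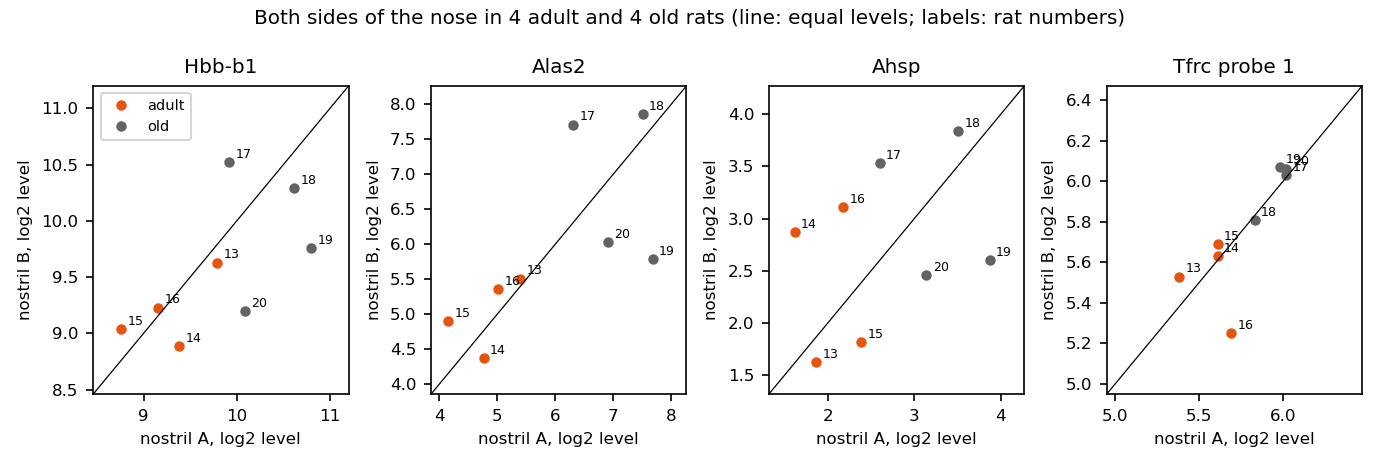
Log2 level in nostril A (x axis) and nostril B (y axis) of 4 adult and 4 old rats, numbered, for Hbb-b1, Alas2, Ahsp and Tfrc probe 1, with the line of equal levels. Old rats 17, 19 and 20 lie off the line for the first 3 genes and all old rats lie near it for Tfrc.

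Further genes of the red cell were counted in 8 lists. Their counts stand beside 26.8% of all probes called higher and 19.8% called lower in newborn than in adult rats, 20.4% and 22.7% in newborn than in old rats, and 11.7% and 20.2% in adult than in old rats. Newborn levels exceeded adult ones for all 7 haemoglobin chain genes on the array (median log2 change 2.28), and 6 of 7 were lower in adult than in old rats. Against old rats 2 of 7 were called higher in newborn rats, a share near the 20.4% of all probes, Hbb-b1 and the embryonic chain Hbe1 (adjusted p = 8.29e-05), which was well above background on no old array. The alpha-globin probe Hba-a3 was 2.28 ± 0.13 higher in newborn than in adult rats (adjusted p = 1.10e-12) and gave 0.22 ± 0.13 against old rats (adjusted p = 0.17), with 3 arrays saturated. Against adult rats the values were 2.54 for Hbe2, 2.42 for Hbg1, 1.66 for Hbb and 1.28 for Hbq1. Hbe1, Hbe2 and Hbg1, genes of embryonic and early beta-like chains, were well above background on all 19 pup arrays and on 2, 2 and 3 of 8 adult arrays. On old arrays Hbe2 and Hbg1 were well above background on 7 of 8 each. Neither was called against old rats (0.68 for Hbe2 and 0.35 for Hbg1).

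In the haem synthesis list 8 of 14 genes were higher and 2 lower in newborn than in adult rats (26.8% and 19.8% of all probes). The higher ones behind Alas2 included Urod (1.43), Alad (1.21), Tmem14c (1.15), Fech, which inserts the iron (0.98), Abcb6 (0.45) and Ppox (0.32). Abcb6 gave -0.15 with normexp and quantile normalization. Abcb10 was lower (-0.60), as was Cpox (-2.24), whose probe was well above background on 1 of 19 pup arrays and 4 of 8 adult arrays. Alas1, the form of the enzyme used outside red cells, gave -0.13 (adjusted p = 0.358), Uros 0.16, Slc25a38 0.13 and Slc25a37 -0.50, none called. Against old rats 3 genes were called higher, a share near the 20.4% of all probes, and 7 lower, where 22.7% of all probes were. The higher ones were Alas2, Fech (0.49) and Cpox, which was well above background on no old array and 1 pup array. Alas1 was among the lower ones (-1.23 ± 0.12, adjusted p = 6.37e-09). The median of the list was 0.38 against adult and -0.27 against old rats, where all probes had 0.10 and -0.04.

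Of 17 genes of the red cell membrane and its skeleton, 11 were higher and 3 lower in newborn than in adult rats, and 9 were higher and 4 lower than in old rats. The shares called lower were near those of all probes, 19.8% and 22.7%, and those called higher were above 26.8% and 20.4%. Besides Epb42 and Slc4a1, the blood group antigen Kel was higher (3.86 ± 0.30, adjusted p = 1.64e-10; 1 of 8 adult arrays well above background), and Ank1, the ankyrin that binds band 3, was called higher with no adult or old array well above background (adjusted p = 1.41e-07). Rhag, the partner of the Rh antigens, was lower, by -1.57 ± 0.24 against adult (adjusted p = 5.90e-06) and -3.47 ± 0.24 against old rats (adjusted p = 3.72e-11), as were Dmtn (-1.71 and -1.24) and Tmod1 (-0.76 and -0.95). Spnb1, named for a spectrin, was not called against adult rats (0.32) and was well above background on 1 pup array.

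Among 10 erythroid factor genes on the array, 6 were higher and 2 lower in newborn than in adult rats, and 9 are named here. The share called lower was near the 19.8% of all probes, and that called higher was above 26.8%. Behind Gata1 and Klf1 came Myb, a factor of early precursors (1.37 ± 0.18, adjusted p = 6.64e-07), Nfe2 (1.16), Gfi1b (0.66) and Tal1, called higher with no adult array well above background (adjusted p = 2.05e-04). Lmo2 was lower (-1.12 ± 0.09, adjusted p = 4.30e-10), and Ldb1 (0.04) and Gata2 (-0.00) were not called. Against old rats Gata1, Klf1 and Myb (1.32) were higher, Lmo2 (-1.41) and Tal1 (-1.01) lower, and Nfe2 gave -0.07 and Gfi1b -0.44, neither called. The counts of 3 higher and 2 lower against old rats were near the shares of all probes, 20.4% and 22.7%.

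Of 7 genes of erythropoietin and stem cell factor signalling, 3 were called higher in newborn rats than in adult ones, Kitl (1.19), the erythropoietin receptor Epor (0.86) and Stat5a (0.35), and 1 was lower, the receptor Kit (-0.76). Epo was not well above background on any array, and Jak2 gave -0.12. The median of the list, 0.08, was near the 0.10 of all probes. Of 11 iron genes 7 were higher, where 26.8% of all probes were, and 2 lower, the latter near the 19.8% of all probes. Of the 7, Fth1 (0.60) gave -0.17 with quantile normalization, and Aco1 (0.47) gave -0.02 with normexp and quantile normalization. Higher were Ftl1 and Slc40a1 (both 1.73), which store and export iron, Tfr2 (1.05, with 9 of 19 pup and 2 of 8 adult arrays well above background) and Tfrc, and lower were Ireb2 (-0.65) and Hfe (-0.34), with Steap3 (0.29) and Tf (0.98 ± 0.43) not called.

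Of 10 genes that bind or break down haem or haemoglobin, 6 were higher (26.8% of all probes were) and 2 lower, near the 19.8% of all probes. Beyond Ahsp these were haptoglobin Hp (2.48 ± 0.33, adjusted p = 8.25e-07), its receptor Cd163, called with no adult or old array well above background (adjusted p = 1.76e-07), and Blvra (0.88), while Blvrb (-0.67) and Hmox2 (-0.49) were lower, and Hebp2 (-0.25) and Hpx (0.50) were not called. Among 15 genes of reticulocyte maturation and red cell enzymes 10 were higher and 1 lower (Ube2o, -0.34), where 26.8% and 19.8% of all probes were. Alox15, the lipoxygenase that breaks down organelles in reticulocytes, was 6.09 ± 0.27 log2 units higher in newborn than in adult rats (adjusted p = 1.13e-14) and 5.74 ± 0.27 higher than in old rats (adjusted p = 4.43e-14). Car1, the red cell carbonic anhydrase, was 3.59 ± 0.32 higher, while Hemgn (3.54; 2 of 8 adult arrays well above background) and Trim58 (1.40; 5 of 19 pup and 1 of 8 adult arrays) were called higher with sizes that rest largely on background. Pklr (0.56) and Cat (0.00) were not called. Prdx2, at 0.43, gave -0.30 with quantile normalization (adjusted p = 4.96e-04). The lists overlap with the 9 genes and share their arrays and control groups.

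**Figure D5:**
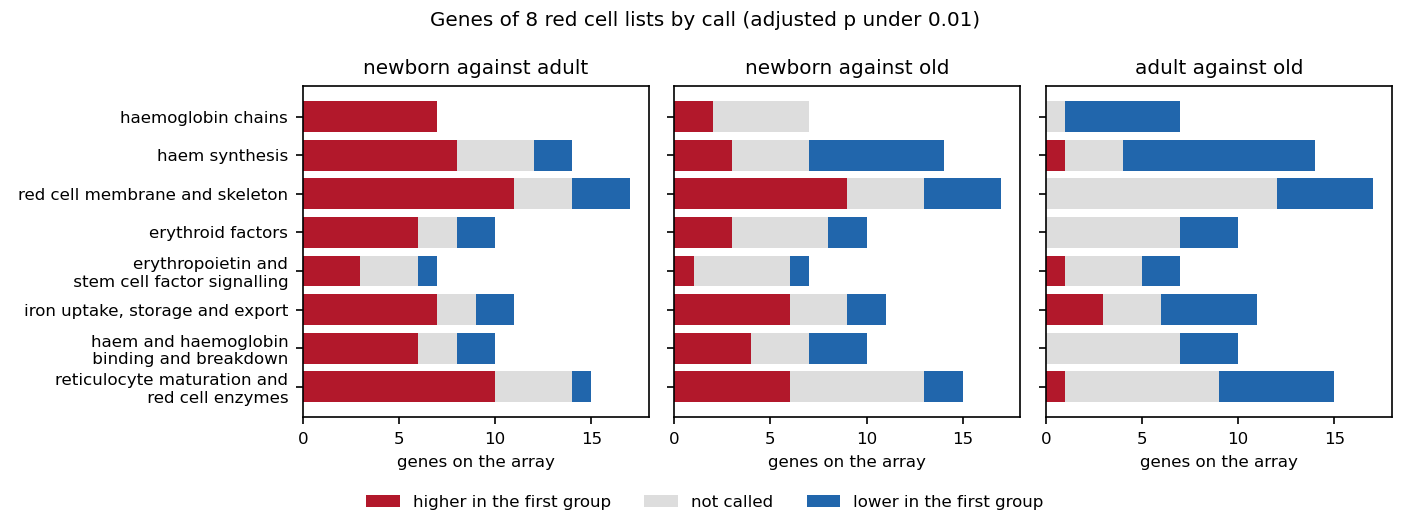
Number of genes on the array (x axis) in 8 red cell lists by call at an adjusted p under 0.01, in 3 comparisons. The 7 haemoglobin chain genes are all higher in newborn rats than in adult ones, while against old rats 2 of 7 are, and 10 of 14 haem synthesis genes are lower in adult than in old rats.

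Markers of other cells also differed between ages. Given as the sum of levels over the array median, the 6 dividing cell markers ran from 303 to 537 in pups, 59.1 to 69.5 in adult rats and 33.4 to 42.5 in old rats. The 6 endothelium markers ran from 30 to 92.1, 15.8 to 17.4 and 11.2 to 15.4. The 5 bone markers ran from 1903 to 5440, 1244 to 2297 and 457 to 756, and of them Acp5 (1.60) was called higher in newborn rats than in adult ones while Bglap (0.23), Ibsp (-0.24), Sp7 (0.29) and Ctsk (-0.21) were not called. The 7 neutrophil and marrow granule markers ran from 29.7 to 204, 6.67 to 14.5 and 9.11 to 63.9, with Ltf at background in all pups. The 5 red cell precursor markers, Gata1 and Klf1 among them, ran from 7.35 to 18.6, 2.72 to 3.8 and 5.57 to 8.9. Against old rats Gata1 and Klf1 were called higher in newborn rats and Tal1 lower (-1.01), while Gfi1b (-0.44) and Epor (-0.61) were not called. The 5 red cell markers, all members here, ran from 1472 to 3540, 506 to 885 and 899 to 1623. The median newborn sum of each of these lists was the highest of the 3 ages, with ranges that overlap older rats for bone, neutrophil and marrow granule, red cell and red cell precursor markers. Between adult and old rats the dividing cell, endothelium and bone sums were lower in old rats, where Hbb-b1, Alas2, Tfrc probe 1 and Hebp1 were higher. No single endothelium marker was called lower in old rats, Kdr, the brightest, included (adult against old 0.33, adjusted p = 0.31). Cdh5, well above background on no adult array and 7 of 8 old arrays, was called higher in old rats (adjusted p = 1.37e-05). The part of these cells in the results was not tested.

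The 8 platelet and megakaryocyte markers ran from 108 to 173 in pups, 60.1 to 68.1 in adult rats and 70.2 to 101 in old rats, with Gp5 at background in all pups, and the 3 eosinophil markers from 15.3 to 139, 9.11 to 14.8 and 3.01 to 4.4. Mast cell markers (8) ran from 12.5 to 196, 154 to 219 and 131 to 215, macrophage markers (7) from 146 to 285, 141 to 191 and 274 to 439, and B cell precursor markers (4) from 0.936 to 2.73, 0.753 to 2.24 and 0.533 to 2.09, with Dntt at background on every array. The 5 basal cell markers ran from 69.1 to 506, 82.3 to 93.7 and 122 to 140. Olfactory sensory neuron markers were lower in pups, at 1039 to 2076 against 3562 to 4452 in adult and 6715 to 8075 in old rats, as were sustentacular cell markers, at 807 to 2061 against 2749 to 3259 and 3971 to 4685. Levels are relative to the median of the whole array, so that the share of RNA from these epithelial cells enters every comparison of ages; its part was not tested.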

How the data were processed

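RNA of 27 rats was measured on 35 arrays. Output of Agilent Feature Extraction was deposited by the authors for each array: the intensity of a spot after subtraction of its local background, without scaling across arrays. The files name an earlier software release for the adult arrays. A matrix of ratio values was deposited too, scaled to each array's median and each probe's own constant, used as an alternative only. Probe coordinates are those of the files (rn3), and no annotation of that build was used.

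Control spots and outlier spots were left out, the spots of a probe averaged, and each intensity divided by its array's median over 41012 probes, with values under 0.01 set to 0.01 before log2. For adult and old rats the mean of both nostrils was used. Groups came from the labels. All 6 groups entered 1 fit with limma 3.58.1 (R 4.3.3, lmFit and eBayes, two-sided, Benjamini-Hochberg over all probes, adjusted p under 0.01), where the study's methods used a t-test, an alternative here. Simulated data with known changes were used to check the fit. Correlations used 100000 permutations within litters (scipy 1.17.1), so that p-values are at least 1e-05. P-values measure the spread between rats, pups of a litter included, and the small number of arrays limits precision. Tests relative to Hbb-b1 and of all gene pairs were added after the data were seen.

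The 9 genes and all lists were chosen with earlier results of these data known. The text names every probe of the 9 genes, all haemoglobin, haem synthesis and erythroid factor genes (a few list genes are counted but not reported here), and of other lists up to 4 called genes per direction with the largest change against adult rats and up to 2 not called. List genes whose change against adult rats turned sign with another normalization are named too. A gene with several probes is represented by its brightest probe. Genes most like Hbb-b1 are the 10 with the highest correlation over pups. Medians of lists include probes near background. Alternatives covered scaling, background, floor, filters, blocks, variance model, test, threshold and leaving out each rat. Sequences are from RefSeq (GRCr8).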

Additional observations from a re-analysis of the deposited data

Results flagged for a closer look

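Of 72 groups of 4 or 5 rats tested over the 12 probes, 10 held a rat whose gap to the others passed Dixon's 95% value, where chance gives about 1 in 20. Rat 32 of L4 was low for Alas2 (7.39, the others 8.37 to 8.73) and for Slc4a1 on probe 1 (3.60, the others 4.74 to 5.14), and its 2 values come from 1 array. Rat 24 of L2 was high for Hebp1 (6.88, the others 5.91 to 6.12) and low for Tfrc on probe 1 (6.52, the others 6.66 to 6.71). Old rat 18 was low for Tfrc on probe 1 (5.82, the others 6.02 to 6.04), and L1 rat 11 was high for Tfrc on probe 2 (2.55, the others 2.09 to 2.15). On Tfrc probe 3, L2 rat 25 (-2.87) and L4 rat 34 (-4.85) were low. Adult rat 15 was low for Gata1 (-4.34), and old rat 19 lay apart on Slc4a1 probe 2 (-5.57, the others at -6.64, the floor). Gata1 and Slc4a1 probe 2 were not well above background in these older rats, and Tfrc probe 3 was so on 3 of 19 pup arrays.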

How the results depend on the processing

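The log2 changes of the 12 probes in 4 comparisons gave 1496 values under the alternatives, of which 1456 kept the direction and the side of the threshold, 24 lost the call, 16 gained it and none of the called changes turned. The count of probes called between newborn and adult rats was 11 in all (11 to 11 with each rat left out), 10 with quantile normalization and 10 with normexp and quantile normalization. It was 8 with a fold of at least 5 and 7 with the methods' filter, which drops probes dim at 1 age. That between newborn and old rats was 9 (9 to 10 with a rat left out) and 6 to 10 over the other alternatives. Among these it was 7 with each litter's mean as 1 newborn replicate, 7 with the methods' filter and 7 with the methods' t-test. The count between adult and old rats was 5 (5 to 6 with a rat left out), 3 with quantile normalization, 3 with normexp and quantile normalization, 8 with every array as a sample and 0 with a fold of at least 5. That between L1 and old rats was 7 (6 to 7 with a rat left out) and 4 with the methods' filter. The count among L2, L3 and L4 was 2, with 0 to 3 when a rat was left out and 1 with quantile normalization. The number of genes correlated with Hbb-b1 was 1, and 0 without the 2 pups farthest from its median. The methods' t-test ended the calls of Hbb-b1 (adjusted p = 0.043), Alas2 (0.013) and Gata1 (0.0233) against old rats. Sizes of dim probes depended on the background most, from 0.52 to 9.91 log2 units for Slc4a1 probe 2 against adult rats. Quantile normalization moved the median change of all probes from 0.10 to 0.00 in newborn against adult rats and from -0.13 to -0.00 in adult against old rats.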
